A study of Mus musculus with 9 samples.

Results

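The microRNAs (miRNAs) mmu-miR-124-5p, mmu-miR-129-5p, mmu-miR-138-5p and mmu-miR-218-5p are 4 miRNAs known from nerve cells, and each is made from more than 1 gene. They were taken by name from a table of 1433 rows, in which they occupy 9, 1 for each precursor. With 1 row kept for each name and near-identical names merged, the table gave 1052 mature miRNAs. All 4 passed the filter on low counts that left 188 miRNAs for testing. The table holds small RNA reads from C57BL/6 mouse lateral cortex at embryonic day 14.5, from which cells were sorted by endogenous fluorescent reporters into 3 populations with 3 libraries each. Proliferating progenitors carried neither the R nor the G signal, differentiating progenitors carried R without G, and newborn neurons carried G. The labels do not spell out which genes drive the reporters. The gate without either signal also admits any cell of the cortex that lacks both reporters. Nothing in the labels says whether libraries came from separate litters, so p-values measure the spread between these libraries.

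A miRNA gene is transcribed into a hairpin, from which the enzymes Drosha and Dicer cut a duplex, and the strand kept by an Argonaute protein pairs with messenger RNAs through its seed, bases 2 to 8. miR-124 is the best known miRNA of neurons and represses the splicing repressor Ptbp1 and parts of the REST complex, mostly through its 3p strand, so that the 5p strand counted here is the partner strand of the same hairpins. miR-129-5p and miR-138-5p are studied in dendrites, the latter as a repressor of the depalmitoylating enzyme Lypla1 that limits spine growth. miR-218-5p is abundant in neurons and especially in motor neurons, and its genes lie inside the axon guidance genes Slit2 and Slit3.

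In RefSeq (GRCm38.p6) 3 of the 4 members were matched, at 6 loci, and miR-124-5p is given by name. The mature strands are shown because the 3 have different seeds and so can pair with different target sites. The seed is in capitals, written 5′ to 3′.
miR-129-5p: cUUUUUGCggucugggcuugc
miR-138-5p: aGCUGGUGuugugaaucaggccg
miR-218-5p: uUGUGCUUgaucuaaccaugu
Among 1679 mature names in RefSeq the seeds of miR-129-5p and miR-138-5p occurred in no other name, and that of miR-218-5p in 1 other, mmu-miR-7002-3p, which was not among the tested miRNAs.

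The 9 loci were placed with the GENCODE annotation of GRCm38, the assembly that the submitters' processing notes name as mm10. Mir124a-1 lies at chr14:64590657-64590741 on the + strand within an exon of the lincRNA gene Mir124a-1hg. Mir124a-2 (chr3:17795662-17795770, +) lies in the lincRNA gene Mir124-2hg, with 27 of its 109 bases in an annotated exon, and Mir124a-3 (chr2:180894040-180894107, +) overlaps the lincRNA gene Gm27032 by 3 bases. Mir129-1 (chr6:29022619-29022691, +) is exonic in the lincRNA gene Gm3294, and Mir129-2 (chr2:94241364-94241453, −) is intronic in the lincRNA gene Mir670hg. Mir138-1 (chr9:122682876-122682974, +) is exonic in the transcribed pseudogene Gm47135 and Mir138-2 (chr8:94324311-94324381, +) in the lincRNA gene C78859. Mir218-1 (chr5:48223942-48224051, +) and Mir218-2 (chr11:35616816-35616925, +) are intronic in Slit2 and Slit3. The transcripts of these overlapping genes were not analysed here.

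The hairpins of the matched loci are shown because the table has a row for each precursor, and the paired loci carry the same mature strand in different surroundings. The mature 5p strand is in capitals.
Mir129-1: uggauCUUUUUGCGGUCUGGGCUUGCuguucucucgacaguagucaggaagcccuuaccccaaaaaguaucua
Mir129-2: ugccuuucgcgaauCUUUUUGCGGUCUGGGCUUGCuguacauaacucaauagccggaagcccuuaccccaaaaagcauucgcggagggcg
Mir138-1: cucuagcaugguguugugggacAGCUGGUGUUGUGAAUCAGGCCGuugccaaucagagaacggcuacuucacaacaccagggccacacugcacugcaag
Mir138-2: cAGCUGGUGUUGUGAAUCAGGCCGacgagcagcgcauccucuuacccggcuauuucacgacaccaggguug
Mir218-1: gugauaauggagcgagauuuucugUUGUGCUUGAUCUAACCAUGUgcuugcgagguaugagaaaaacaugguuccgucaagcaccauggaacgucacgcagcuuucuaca
Mir218-2: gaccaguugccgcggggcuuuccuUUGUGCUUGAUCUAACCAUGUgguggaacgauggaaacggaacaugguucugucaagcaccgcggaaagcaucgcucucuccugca
The mature strands of a pair are identical. Past its 3′ end the pair of miR-129 hairpins shares 3 more bases, the miR-218 pair 1 and the miR-138 pair 0. A read of the annotated mature strand alone cannot be given to either locus.

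The libraries held 821155 to 3856484 counts of mature miRNAs, and 3 counts, the limit that a count of 0 allows, stand for 0.778 to 3.65 CPM, the field's usual unit for a count relative to the total of its library. Levels are given as CPM scaled by TMM factors, changes as log2 changes of edgeR's quasi-likelihood fit to all 9 libraries with their standard error (SE), and a miRNA is called at a Benjamini-Hochberg adjusted p under 0.05 over the 188. The first step is differentiating against proliferating progenitors, and the second is neurons against differentiating progenitors. miR-9-5p, the leading miRNA of the forebrain, made up 62.5% to 69.0% of the counts in every library. The miRNAs of the Hox clusters, which mark hindbrain and spinal cord, summed to at most 7.46 CPM in any library.

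miR-124-5p rose at both steps, miR-138-5p rose at the second step, and miR-218-5p rose by a small amount that was called only from end to end. miR-129-5p fell at both steps. Over the whole lineage 3 of the 4 were called higher, against 29.8% of all tested miRNAs, and 1 was called lower, against 26.6%. At the first step 2 of the 4 were called, against 16% of all, and at the second 3 of the 4, against 46.3% of all. With 4 members these shares are a description only.

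**Figure D1:**
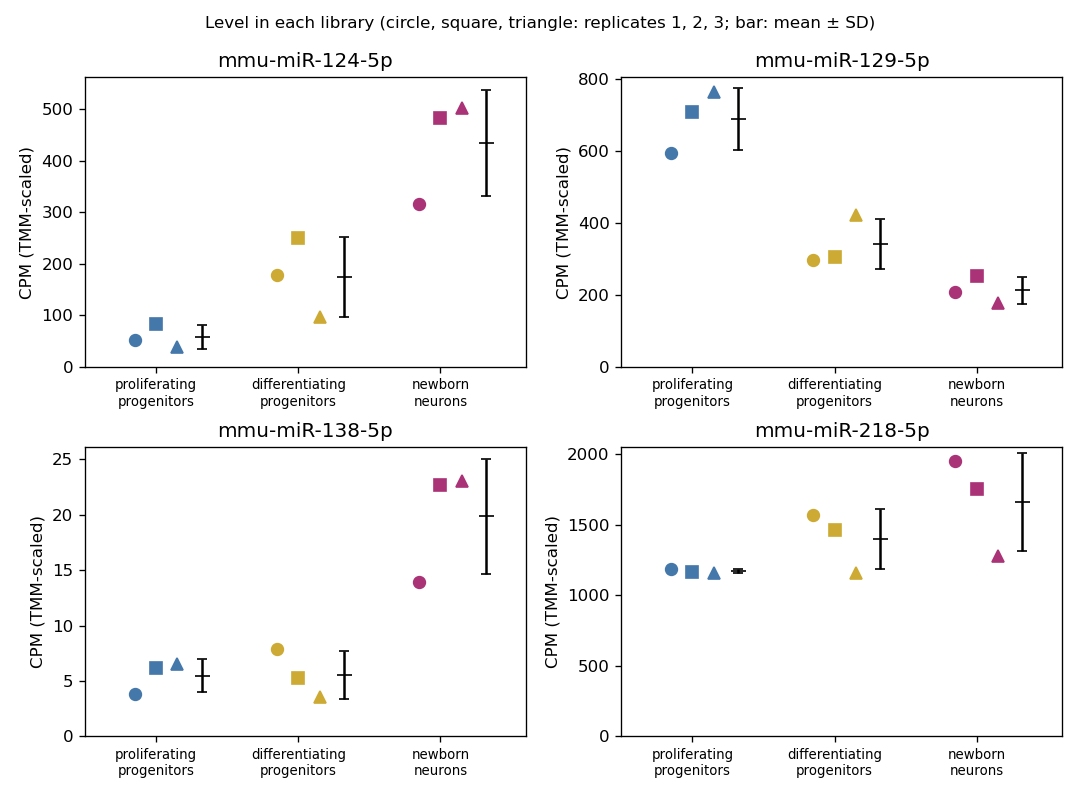
Level of each miRNA in TMM-scaled CPM (vertical axes, each from 0) in the 3 libraries of each population; symbols mark the replicate number and the black bar the mean ± SD. miR-124-5p goes from 37.96 to 82.8 CPM in proliferating progenitors up to 317 to 503 CPM in neurons, miR-129-5p goes down from 594 to 764 CPM to 178 to 253 CPM, and the libraries of miR-138-5p and miR-218-5p in both progenitor populations overlap.

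Replicates 1 to 3 of the proliferating progenitors gave 69, 81 and 29 counts of miR-124-5p. Differentiating progenitors gave 249, 284 and 135, and neurons gave 1230, 918 and 655. This was 52.3, 82.8 and 37.96 CPM, then 177.8, 250.1 and 96.1 CPM, then 317, 484 and 503 CPM. No library of a population reached into the range of the next, and replicate 3 of the differentiating progenitors lay nearest to the proliferating ones. At the first step the log2 change was 1.58 (SE 0.33, edgeR adjusted p = 0.00238). The second step added 1.32 (SE 0.30), with an edgeR adjusted p of 0.00171. From end to end it was 2.90 (SE 0.33, edgeR adjusted p = 1.01e-06), a 7.45-fold higher level, and 12 of the 188 miRNAs, this one included, rose by as much or more. At the first step 7 of 188 did. miR-124-5p was therefore among the 4.79% of miRNAs called higher at both steps.

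miR-129-5p went the other way. Its counts were 784, 693 and 584 before the first step, 415, 348 and 593 after it and 807, 480 and 232 in neurons, in libraries whose totals differ. The levels were 594, 708 and 764 CPM, then 296, 306 and 422 CPM, then 208, 253 and 178 CPM. The 3 ranges did not overlap, and replicate 3 of the differentiating progenitors was again the nearest to the proliferating ones. The fall was 2.01-fold at the first step (log2 change -1.01, SE 0.18, edgeR adjusted p = 0.000875) and 1.60-fold at the second (log2 change -0.68, SE 0.18, edgeR adjusted p = 0.00639). Over the whole lineage it was 3.22-fold (log2 change -1.69, SE 0.19, edgeR adjusted p = 7.92e-07). The call at the second step rests on that library: without replicate 3 of the differentiating progenitors the log2 change was -0.43 and the edgeR adjusted p 0.0629. miR-129-5p was among the 4.26% of miRNAs called lower at both steps.

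miR-138-5p was the rarest of the 4, with 5, 6 and 5 counts in the proliferating, 11, 6 and 5 in the differentiating and 54, 43 and 30 in the neuronal libraries. The levels were 3.79, 6.13 and 6.55 CPM, then 7.85, 5.28 and 3.56 CPM, then 13.9, 22.7 and 23.1 CPM. The libraries of both progenitor populations overlapped wholly, and those of neurons lay above all 6. The first step gave a log2 change of 0.08 with a 95% interval from -0.93 to 1.08 (edgeR adjusted p = 0.931). At this depth a fall or a rise within that interval stays possible. At the second step it rose 3.42-fold (log2 change 1.77, SE 0.36, edgeR adjusted p = 0.000721). The end-to-end log2 change was 1.85 (SE 0.38, edgeR adjusted p = 0.000556).

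Counts of miR-218-5p were 1569, 1142 and 885 in the proliferating, 2197, 1662 and 1629 in the differentiating and 7603, 3327 and 1667 in the neuronal libraries. Its levels were 1189, 1167 and 1158 CPM, then 1569, 1464 and 1160 CPM, then 1957, 1755 and 1281 CPM. Proliferating progenitors were nearly equal, while replicate 3 of each later population was low and lay within the range of the population before it. Neither step was called on its own, with a log2 change of 0.25 (SE 0.16) at each. The edgeR adjusted p was 0.353 at the first and 0.223 at the second. From end to end the level was 1.42-fold higher (log2 change 0.51, SE 0.16, edgeR adjusted p = 0.0140). This call was lost without replicate 1 of the neurons (log2 change 0.39, edgeR adjusted p = 0.104), and without replicate 3 of the neurons the second step was called (log2 change 0.44, edgeR adjusted p = 0.0326).

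**Figure D2:**
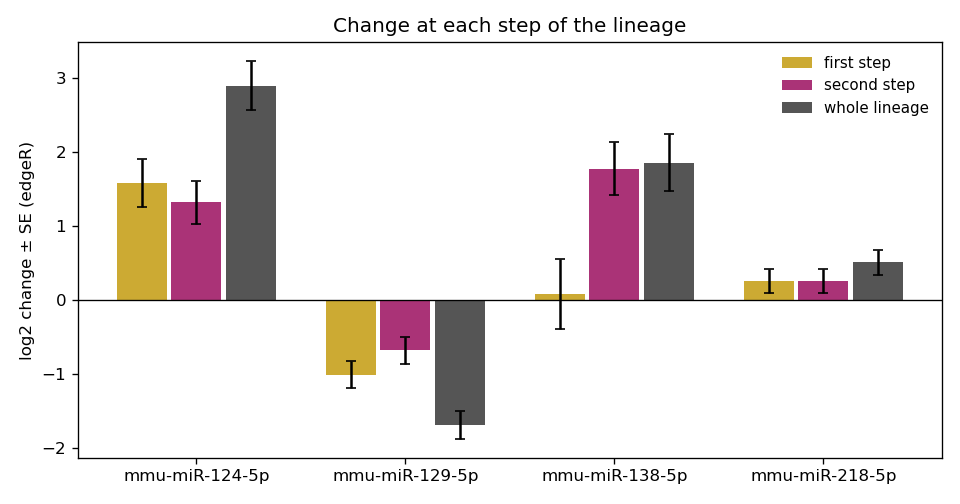
Log2 change ± SE from edgeR (vertical axis) of each miRNA at the first step, the second step and over the whole lineage. The bars of miR-124-5p are of like height at both steps, and those of miR-129-5p point down. miR-138-5p stands at 0.08 at the first step and 1.77 at the second. miR-218-5p stands at 0.25 at each step.

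The timing was compared by testing the second step against the first. miR-124-5p made 54.5% of its total log2 change at the first step and miR-129-5p 59.8%, and their steps differed by -0.26 (SE 0.53, edgeR adjusted p = 0.816) and by 0.33 with an SE of 0.32 (edgeR adjusted p = 0.567). For miR-138-5p the share was 4.21%, and the second step exceeded the first by 1.70 (SE 0.74), with an unadjusted p of 0.0364 and an edgeR adjusted p of 0.159. For miR-218-5p the difference was 0.00 with a 95% interval from -0.59 to 0.59. By edgeR no member was called, against 7.98% of tested miRNAs, and miR-138-5p alone had an unadjusted p under 0.05.

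The opposite course of miR-129-5p was followed further with ratios of counts within a library, which do not depend on scaling. For miR-124-5p over miR-129-5p the log2 ratio was -3.50, -3.09 and -4.31 in proliferating progenitors, -0.74, -0.29 and -2.13 once differentiating and 0.61, 0.93 and 1.495 in neurons. miR-129-5p thus had more reads than miR-124-5p in all 6 progenitor libraries and fewer in all 3 neuron libraries. The mean log2 ratio rose by 4.64 over the lineage for miR-124-5p, by 3.45 for miR-138-5p and by 2.18 for miR-218-5p. The populations did not overlap in 8 of 9 comparisons of a ratio, and in each of these the two-sided exact permutation test gave p = 0.1, the smallest that 3 libraries against 3 allow (0.1125 adjusted over the 9 tests). The exception was miR-138-5p at the first step (exact permutation p = 0.3). All 9 comparisons share miR-129-5p, whose own levels did not overlap at either step, so they are not separate results. Such ratios were not taken for the other tested miRNAs, so the count does not set these members apart from the rest. Levels of miR-218-5p alone overlapped at each step, while its ratio, which also holds the fall of miR-129-5p, did not. The ratio therefore does not show that miR-218-5p itself rose at either step.

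**Figure D3:**
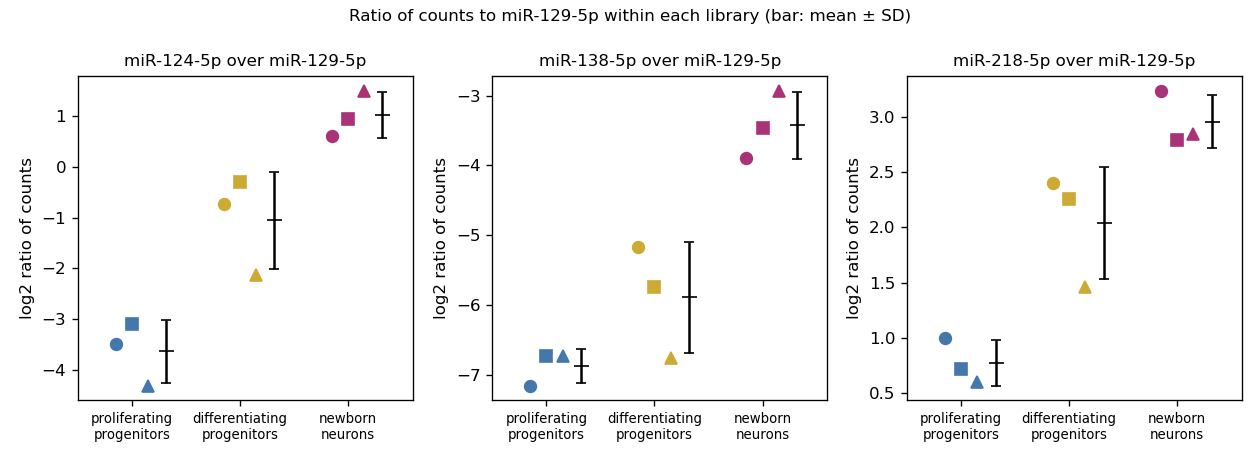
Log2 ratio of the counts of miR-218-5p, miR-124-5p and miR-138-5p to those of miR-129-5p within each library (vertical axes), by population; symbols mark replicate numbers and the black bar the mean ± SD. Every ratio is highest in the 3 neuron libraries, and the ratio of miR-124-5p crosses 0 between differentiating progenitors and neurons.

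The pair of precursor rows of miR-129-5p had totals of 4936 and 4933 counts and differed by at most 2 counts in any library, so both rows fell alike (log2 change over the lineage -1.69 in each). miR-129b-5p, which RefSeq annotates on the strand opposite Mir129-2, had 0 counts in all 9 libraries, which allows up to 3 counts in each. The rows kept held no other mature strand of the 9 precursors of the members, so their 3p strands could not be compared. The RNAs of the host genes were not analysed here. Why miR-129-5p fell was not tested.

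The summed levels of the marker lists for blood and vessel cells were also highest in proliferating progenitors. In proliferating progenitors miR-451a and miR-144-5p, the 2 members of the erythroid list in the table, summed to 260 to 354 CPM. The mural and mesenchymal list, of which miR-143-3p alone passed the filter and miR-214-5p was at 0 in every library, summed to 437 to 579 CPM. In differentiating progenitors the sums were 0.881 to 2.86 and 40 to 43.4 CPM, and in neurons, where miR-144-5p had no count, 0 to 2.31 and 17.7 to 36.3 CPM. The haematopoietic and microglial sum went from 45.8 to 59.3 CPM, through 20.7 to 36.1 CPM, to 8.44 to 9.01 CPM, and endothelial miR-126a-5p from 18.4 to 26.2 CPM, through 11.4 to 12.3 CPM, to 5.28 to 12.3 CPM. Not every member followed its list: miR-146a-5p, of the haematopoietic list, had 7.10 ± 4.53, 14.8 ± 4.90 and 1.12 ± 0.387 CPM (SD, n = 3 each) and so was highest in differentiating progenitors. miR-486a-5p and miR-486b-5p, counted together and also known from erythroid cells, were outside the list and are named after their values were seen. They had 688 ± 184, 31.3 ± 8.95 and 96.5 ± 11.9 CPM (SD, n = 3 each) and rose at the second step (log2 change 1.61, SE 0.25, edgeR adjusted p = 8.38e-05). At that step miR-129-5p went from 342 ± 69.9 to 213 ± 37.8 CPM (SD, n = 3), and the erythroid list was at or under 2.86 CPM in all 6 libraries. The haematopoietic and mural sums were lower in every neuron library than in any of the differentiating progenitors, while the ranges of endothelial miR-126a-5p overlapped. The change of miR-143-3p at that step was not called (log2 change -0.48, edgeR adjusted p = 0.190). The part of blood and vessel cells in the fall of miR-129-5p was not tested. In bulk libraries fewer cells that hold a miRNA and less of it per cell cannot be told apart.

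The precursor rows gave a further result on miR-218-5p. The 3 rows of miR-124-5p repeated the same counts within 2 in any library, as did those of miR-129-5p, but those of miR-218-5p and miR-138-5p did not. For miR-218-5p the row of precursor MI0000701 exceeded that of MI0000700 by 18, 16 and 16 counts in the proliferating, 43, 41 and 44 in the differentiating and 1067, 471 and 250 in the neuronal libraries. As a share of the larger row this was 1.45% ± 0.333, 2.38% ± 0.380 and 14.4% ± 0.524 (SD, n = 3 each). The 3 ranges did not overlap. The neuron libraries, at 14.0%, 14.2% and 14.997%, lay close together although their totals ranged from 1067320 to 3856484 counts.

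The end-to-end call of miR-218-5p depended on which row was used. In CPM the excess went from 16.98 ± 3.69 through 32.7 ± 2.96 to 238 ± 42.2 (SD, n = 3), while the smaller row went from 1155 ± 19.4 through 1365 ± 212 to 1426 ± 305 (SD, n = 3). With the row of MI0000700 alone the end-to-end log2 change was 0.31 (SE 0.17, edgeR adjusted p = 0.129), which was not called, and that of the second step 0.07 (SE 0.17, edgeR adjusted p = 0.751). The table does not pair these accessions with the loci Mir218-1 and Mir218-2, and the reads behind each row are not in it. The 2 hairpins differ from the second base past the mature strand, and no base directly before it is shared. What the extra reads look like was not tested.

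miR-138-5p showed a like excess from fewer reads. The row of MI0000722 held 1, 1 and 2 counts more than that of MI0000164 in the proliferating, 5, 1 and 2 more in the differentiating libraries and 33, 21 and 11 more in neurons. The shares were 25.6% ± 12.6, 34.0% ± 15.3 and 48.9% ± 12.2 (SD, n = 3 each), and their ranges overlapped. The smaller row had 4, 5 and 3 counts, then 6, 5 and 3, then 21, 22 and 19. In CPM the smaller row was at 3.03, 5.11 and 3.93, then 4.28, 4.40 and 2.14, then 5.40, 11.6 and 14.6. Replicate 1 of the neurons thus lay only just above replicate 2 of the proliferating progenitors. The smaller row did not pass the filter on low counts and was not tested.

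**Figure D4:**
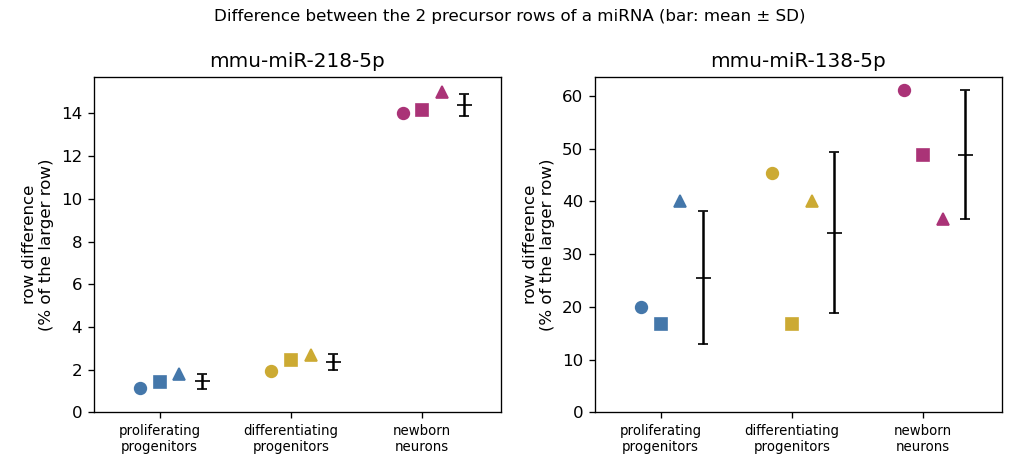
Difference between the 2 precursor rows of miR-218-5p (left) and miR-138-5p (right) as a percent of the larger row (vertical axes, from 0) in each library; symbols mark replicate numbers and the black bar the mean ± SD. For miR-218-5p the neuron libraries lie at 14.0% to 14.997% and all progenitor libraries at 1.15% to 2.70%, while for miR-138-5p the populations overlap.

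The miRNAs whose log2 CPM followed each member most closely over the 9 libraries were found by Pearson's r, a description in which all points share the same 3 populations. miR-124-5p was followed most closely by miR-345-5p (r = 0.95), miR-449a-5p (0.95) and miR-7b-5p (0.91). For miR-129-5p they were miR-143-3p (0.94), which is a mural marker, miR-467c-5p (0.94) and miR-425-5p (0.94). For miR-138-5p they were miR-135b-5p (0.93), miR-329-5p (0.92) and miR-434-5p (0.92), and for miR-218-5p miR-485-5p (0.83), miR-135b-5p (0.78) and miR-380-5p (0.76). A high r does not make the courses equal. miR-143-3p had a first-step log2 change of -3.75, against -1.01 for miR-129-5p. At the second step miR-143-3p had -0.48 (SE 0.29, edgeR adjusted p = 0.190), against -0.68 (SE 0.18, edgeR adjusted p = 0.00639) for miR-129-5p. The difference between these changes was not tested. Among the members themselves r between miR-124-5p and miR-129-5p was -0.94, and that between miR-138-5p and miR-218-5p was 0.59.

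Other miRNAs known from neurons were mostly higher in neurons. Of a list of 27 names, 19 were in the table under exactly that name and 15 were tested. The list was chosen with earlier results of these data known. Some of its miRNAs share a locus or a family, such as miR-132 and miR-212, and are not separate results. Over the whole lineage 10 of the 15 were called higher and 1 lower, against 29.8% and 26.6% of all tested miRNAs, with a median log2 change of 1.34 against -0.05 over all 188. At the first step 3 were called, each higher: miR-7a-5p, miR-7b-5p and miR-134-5p (7.98% of all were called higher, and the median was 0.35 against 0.08). At the second step 8 were called higher and 1 lower, against 23.9% and 22.3% of all (median 1.03 against -0.06): miR-7a-5p, miR-7b-5p, miR-132-5p, miR-212-5p, miR-379-5p, miR-382-5p, miR-383-5p and miR-485-5p rose. Over the lineage miR-134-5p and miR-181a-5p were called higher as well. Among the 15 the largest rises from end to end were those of miR-7b-5p (log2 change 5.10, SE 0.21), miR-212-5p (3.15, SE 0.43), which shares a locus with miR-132, and miR-7a-5p (2.76, SE 0.15). The listed miR-128-5p is in the table only as miR-128-1-5p and miR-128-2-5p, which are therefore not among the 15 and were noted after their values were seen. miR-128-2-5p rose by 3.74 over the lineage (SE 0.66, edgeR adjusted p = 0.000127), from 1.53 ± 1.53 to 23.1 ± 10.4 CPM (SD, n = 3 each). Its starting mean lay within the range of CPM that 3 counts stand for, so the size of this rise is loosely known. The estimate was above that of miR-212-5p, but the difference was not tested. miR-128-1-5p had a log2 change of 0.14 (SE 0.35, edgeR adjusted p = 0.736). The fall was that of miR-149-5p, from 1056 ± 72.8 through 924 ± 169 to 652 ± 82.7 CPM (SD, n = 3 each). Its log2 change over the lineage was -0.69 (SE 0.16, edgeR adjusted p = 0.00125), smaller than that of miR-129-5p.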

How the data were processed

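Small RNA libraries of 3 sorted populations, 3 each, were read from a single deposited table. The authors deposited whole-number read counts, 1 column per library, neither normalised nor pooled. Per the submitters' processing notes bcl2fastq 1.8.2, DESeq2 and mm10 were used; the aligner, the counting tool and the miRNA database release are not given in the sources used here.

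Of 1433 rows, 222 without a database accession were left out. Of the 1211 rows kept, 925 are named as 5p strands. Levels and shares are relative to the strands counted, which lack 3p strands such as miR-9-3p. A mature miRNA with several precursors kept its row with the largest total, and different names with near-identical counts (within 2%, from 50 counts up) were merged. This left 1052 miRNAs. edgeR 4.0.16 (R 4.3.3) was run with filterByExpr, TMM, glmQLFit and glmQLFTest on all 9 libraries without covariates, after a check on simulated data; DESeq2 1.42.0 was an alternative. Of the counts 99.97% were in the 188 tested miRNAs. Ratios used a pseudocount of 0.5 counts and correlations a prior count of 2. Named miRNAs were the 4 members, the 3 most alike to each, and from a neuronal list all called, with values for the largest fall and the 3 largest rises. Marker lists of erythroid, endothelial, haematopoietic, mural, oligodendroglial, choroid plexus, hindbrain and forebrain miRNAs were summed. The oligodendroglial sum was 40.5 to 73.3 CPM and the choroid plexus sum 3.93 to 83.8 CPM over all libraries. Members and lists were chosen with earlier results of these data known. PCR copies are not independent molecules, so the limit given for a count of 0 covers counting error alone.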

Additional observations from a re-analysis of the deposited data

How the results depend on the processing

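For miR-124-5p the direction and the call held in all 20 alternatives at each step and from end to end, and for miR-129-5p at the first step and from end to end. miR-138-5p kept its call at the second step and from end to end in all 19; with the smallest row, which did not pass the filter, it has no value, and its ratio to miR-129-5p over the lineage was then 2.86. For miR-218-5p the end-to-end log2 change was 0.31 with the smallest row and 0.39 to 0.67 leaving out 1 library. Leaving out 1 library gave -0.74 to -0.43 for miR-129-5p and 0.12 to 0.44 for miR-218-5p at the second step, and -0.28 to 0.31 for miR-138-5p at the first.

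The second minus the first step was called for no member in any alternative that gave an adjusted p (DESeq2 gave none for miR-138-5p). Leaving out 1 library it ran from -0.78 to 0.41 for miR-124-5p and from -0.15 to 0.22 for miR-218-5p. For miR-218-5p, near 0, it also changed sign with RLE factors (0.024), total counts (0.025), total counts without miR-9-5p (0.23), no filter (0.034), DESeq2 (0.024) and, an alternative added after seeing the data, merging only identical names (0.12).

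The numbers of miRNAs called at the second step, from end to end and among the 3 populations stayed within 1.5 times. At the first step 30 were called, 18 to 37 leaving out 1 library, the fewest without replicate 1 of the proliferating progenitors, and 68 with every row, where repeated reads count several times. For the second minus the first step 15 were called (45 at an unadjusted p under 0.05), 7 to 18 leaving out 1 library (7 without replicate 3 of the proliferating progenitors, 9 without replicate 1 of the differentiating ones, 8 without replicate 1 of the neurons), 8 with total counts, 27 with DESeq2 and 26 with every row; the cause was not tested. At the second step 45 were higher and 42 lower, but 49 and 26 with total counts without miR-9-5p. Total counts moved the median log2 change of all miRNAs over the lineage by 0.18; relative to it miR-124-5p changed by 2.97, miR-129-5p by -1.64, miR-138-5p by 1.90 and miR-218-5p by 0.54.

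Same-numbered libraries deviated together only in part (r from -0.07 to 0.25, 4 of 9 over 0.1), and 2 of 9 libraries were closest to their own number. With the replicate number as a block no call of the 4 miRNAs changed, and the second minus the first step of miR-218-5p was 0.0076. Depth limits miR-138-5p most, with 16 and 22 counts in all in the progenitor populations.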

Other observations

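The difference between precursor rows was not general. Of 31 repeated names with at least 50 counts, 12 had a smaller row under 0.98 of the larger over all libraries, and for 19 the rows nearly repeated each other. Among the 12, miR-218-5p had a ratio of smaller to larger row of 0.986, 0.977 and 0.858 in proliferating progenitors, differentiating progenitors and neurons. Its neighbours in order of the overall ratio were miR-1843b-5p, with 0.727, 0.756 and 0.804, and miR-181b-5p, with 0.939, 0.934 and 0.914. These neighbours were chosen after their values were seen, and no test was made.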
